A study of Mus musculus with 18 samples.

Results

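The response of stimulated wild-type CD4+ T cells to XCT790 was read from 6 of the 18 arrays of this series, the 3 arrays titled as treated with XCT790 and the 3 titled as wild-type and stimulated. They were chosen by these titles alone. CD4+ T cells were purified from mice 6 to 8 weeks old by negative magnetic selection, to over 95% purity, and cultured in RPMI medium with 10% serum. Both groups were wild-type and, per the treatment protocol, received anti-CD3 and anti-CD28 antibodies (10 µg) over 12 h, which stand in for antigen and costimulation. The treated cells also received 20 µM XCT790, whereas the control cells are labelled as untreated, with no vehicle named. The other 12 arrays, 3 in each group, hold resting wild-type cells taken directly from the mouse, wild-type cells stimulated with 20 µM compound A (an ERRα inhibitor known here only by its code name) and resting and stimulated cells of ERRa-/- mice, which lack ERRα. The stimulation field of the XCT790 labels says that the cells were not stimulated. This contradicts the protocol, so the position of these arrays between resting and stimulated cells is also given. Strain, sex and pooling of the mice are not given in the sources used here.

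ERRα, encoded by Esrra, is an orphan nuclear receptor that binds DNA without a known hormone and, with the coactivators PGC-1α and PGC-1β, drives genes of the respiratory chain, the tricarboxylic acid cycle and fatty acid oxidation. XCT790 is an inverse agonist of ERRα that lowers its activity, and it is also known as a mitochondrial uncoupler. A CD4+ T cell that is activated leaves quiescence, grows, raises glycolysis and mitochondrial biogenesis, enters the cell cycle and begins to make cytokines.

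The values are log2 signals, made with GCRMA, a method that corrects each probe set for background and probe sequence. Every array holds the same set of values, 48.6% of them at or above log2 4, so each change is relative to the other genes on that array. Probe sets of a single gene that reached log2 4 on at least 3 of the 18 arrays were tested, 10691 probe sets of 6873 genes, and a gene is described by its tested probe set of highest mean. Differences are XCT790 minus stimulated, ± SE from limma, on the log2 scale. A gene "rose" or "fell" where its p-value, adjusted over all probe sets by Benjamini and Hochberg, was under 0.05. The series describes its samples as independent biological replicates, and p-values measure the spread between these samples. The 3 arrays per group limit the precision. Folds take values under log2 4 as log2 4, and are then given as "at least".

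XCT790 arrays and stimulated arrays also differed in controls. The 5′ probe set of bacterial dap RNA, spiked in before labelling, read 3.99 to 6.38 on the 6 untreated wild-type arrays and 7.45 to 8.51 on the other 12, so this comparison crosses that split, and the split and the treatment cannot be told apart. Of the 7124 probe sets that passed, some had all 12 of the other arrays on 1 side of all 6 untreated wild-type arrays (176 above and 29 below). The 3′ probe set of 18S ribosomal RNA read 11.38 ± 0.26 (SD, n = 3) with XCT790, 9.04 ± 0.47 in stimulated cells and 9.15 ± 0.77 with compound A. Beta-actin read 0.69 to 0.80 higher at its 3′ than at its 5′ probe set on the XCT790 arrays and 0.52 to 0.58 higher on the stimulated arrays. The 3′, 5′ and middle probe sets of beta-actin were lower on the XCT790 arrays (-0.46, -0.66 and -0.74), with no overlap. The 3′ probe set of Gapdh read 14.25 with XCT790 and 14.23 in stimulated cells. What these control differences contribute to the results was not tested. Replicate arrays differed from each other by a median of 0.115 to 0.217 with XCT790 and 0.082 to 0.106 in stimulated cells, and XCT790 array 1 stood farthest from its group.

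The arrays carried T cell transcripts in both groups, and those of the antigen receptor were lower with XCT790. Cd3e, a receptor subunit of all T cells, read 12.21, 12.20 and 12.09 on the stimulated arrays and 11.26, 11.51 and 11.45 on the XCT790 arrays and fell by 0.76 ± 0.10 (adjusted p = 9.63e-06). Cd4, the coreceptor used to define these cells, read 9.70, 9.61 and 9.49 and 8.30, 8.59 and 8.82 and fell by 1.03 ± 0.16 (adjusted p = 6.4e-05), which 1 of its 2 probe sets showed. The groups did not overlap for either gene. Of 8 CD4 T cell markers tested, 4 fell, with Cd3g (-1.19 ± 0.12) and Thy1 (-1.09 ± 0.28) the others, and 1, Cd28 (0.47 ± 0.17), rose. The call on Cd28 ended without XCT790 array 1 or 2, or without stimulated array 2 or 3 (adjusted p up to 0.0988) and with dim probe sets kept (0.0553). In bulk cells, fewer cells of a type and less RNA per cell cannot be told apart.

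XCT790 was followed by a broad change in relative expression. Of 6873 genes, 4526 passed (65.9%): 1993 rose (29.0%) and 2533 fell (36.9%), with a median difference of -0.06 and a median absolute difference of 0.49. At the probe set level 7124 of 10691 passed (66.6%). At least 2-fold changes that passed were 614 rises and 836 falls, and at least 4-fold changes were 130 rises and 147 falls. The 3 arrays of 1 group all lay above those of the other for 5205 genes (75.7%). With so many genes past the test, the lists of genes below are read against 29.0% rising and 36.9% falling. Members named because few of a list moved one way were chosen after their values were seen. Of 2525 genes with several tested probe sets, 153 had probe sets called in both directions. Averaging the probe sets of each gene moved some of the genes named below by over 1.5 times. It enlarged the differences of Hspa1b (7.44), Ndrg1 (5.12), P4ha1 (3.63), Sesn2 (3.09), Trp53inp1 (3.21), Klf6 (2.50), Xiap (1.75), Idh3a (-1.10) and Eomes (-3.77). It reduced those of Cpt1a (1.20), Insig2 (1.09) and Mxd4 (0.37).

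**Figure D1:**
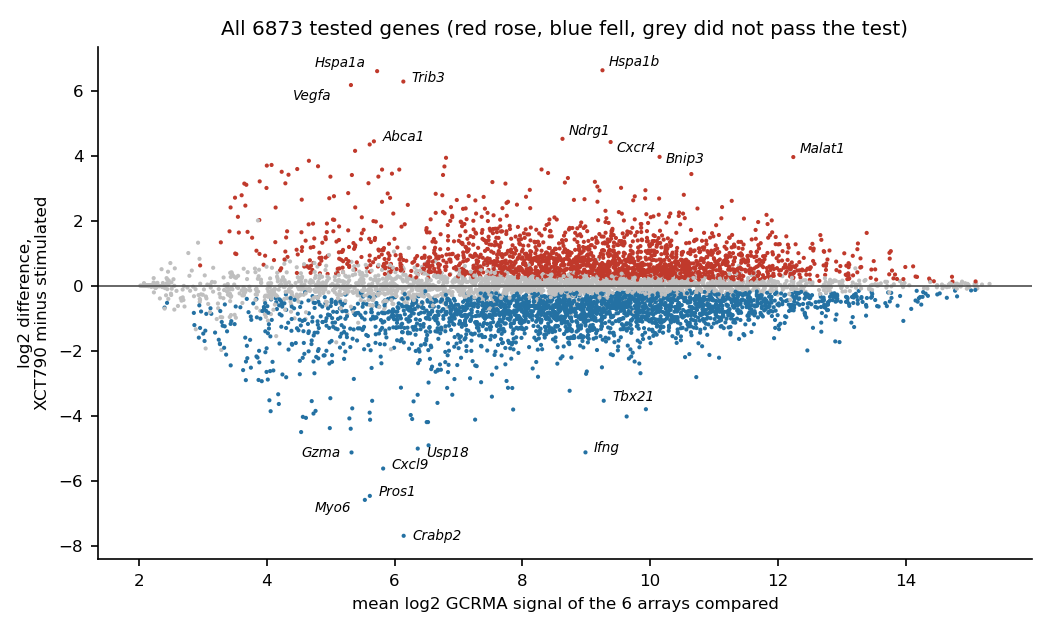
Log2 difference between XCT790 and stimulated wild-type arrays (vertical axis) against the mean log2 signal of the 6 arrays (horizontal axis), each point 1 of 6873 genes. The 1993 genes that rose (red) and the 2533 that fell (blue) lie along the whole signal range, and the labelled extremes reach from Crabp2 (-7.69) to Hspa1b (6.62).

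The largest rises were in inducible Hsp70, in stress and hypoxia genes and in several genes that were lower in stimulated than in resting cells. Hspa1b, which encodes an inducible Hsp70 chaperone, read 5.95, 5.85 and 6.02 on the stimulated arrays and 13.41, 11.70 and 12.59 on the XCT790 arrays, a rise of 6.62 ± 0.67, or 98.6-fold (adjusted p = 8.37e-07). Trib3, a pseudokinase induced by the stress factor ATF4, read 2.84, 2.88 and 3.28 and 9.24, 9.34 and 9.25, a rise of 6.28 ± 0.34, or at least 38.8-fold (adjusted p = 4.09e-09). Vegfa, the angiogenic growth factor, read 2.23, 2.24 and 2.24 and 8.13, 8.61 and 8.46, a rise of 6.17 ± 0.09, or at least 21.2-fold (adjusted p = 6.29e-16). Trib3 and Vegfa were thus under log2 4 on every stimulated array and well above it on every XCT790 array. Abca1, a cholesterol exporter, read 3.51, 2.82 and 4.04 and then 7.86, 7.96 and 7.87 (at least 14.8-fold up, adjusted p = 1.84e-08), against 9.75 ± 0.28 (SD, n = 3) in resting cells. Cxcr4, the receptor for the chemokine CXCL12, rose 21.4-fold, from 7.17 ± 0.22 to 11.59 ± 0.40, and read 11.62 ± 0.03 in resting cells. Rora, a nuclear receptor, rose 15.3-fold, from 4.84 ± 0.15 to 8.77 ± 0.24, with 7.84 ± 0.09 in resting cells. Both groups of arrays stayed apart for all 3 genes, as the choice of the largest rises required. The other large rises were Ndrg1 (22.9-fold), Bnip3 (15.6-fold), Malat1 (15.5-fold), Cntrl (at least 13.8-fold), Gpt2 (at least 11.0-fold), Klhl24 (at least 5.98-fold), Myo10 (at least 3.82-fold), Mgarp (at least 3.60-fold) and Hspa1a, described with the chaperones. All 15 passed with adjusted p-values of 4.29e-06 or less.

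The largest falls were in a retinoic acid binding protein, in effector cytokines and in interferon-inducible genes. Crabp2, which carries retinoic acid to the nucleus, read 10.10, 9.98 and 9.88 on the stimulated and 2.31, 2.27 and 2.31 on the XCT790 arrays and fell by 7.69 ± 0.15, or at least 63.4-fold (adjusted p = 2.76e-14). With compound A it read 5.90, 5.79 and 5.30, between the other groups. Pros1, which encodes protein S, a ligand of TAM receptor kinases, fell at least 28.7-fold, from 8.84 ± 0.16 to 2.38 ± 0.40. Myo6, a myosin motor, fell at least 28.4-fold, from 8.83 ± 0.20 to 2.24 ± 0.08. Crabp2, Pros1 and Myo6 were under log2 4 on all 3 XCT790 arrays. Cxcl9 (at least 24.8-fold), Gzma (at least 14.8-fold), Ifng (34.8-fold), Usp18 (at least 28.3-fold), Il12rb1 (30.0-fold), Prss16 (at least 6.90-fold), Ccl1 (at least 11.4-fold), Il4 (at least 9.03-fold), Fignl1 (18.3-fold), Ifitm3 (at least 14.6-fold), Wdhd1 (at least 12.8-fold) and Lag3 (at least 15.2-fold) complete the 15 largest falls. Their adjusted p-values were 0.00173 or less. Ifitm3 was the least even: it read 9.77, 7.77 and 8.32 on the stimulated and 6.25, 3.51 and 3.53 on the XCT790 arrays, and its difference of -4.19 became -5.10 without XCT790 array 1.

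**Figure D2:**
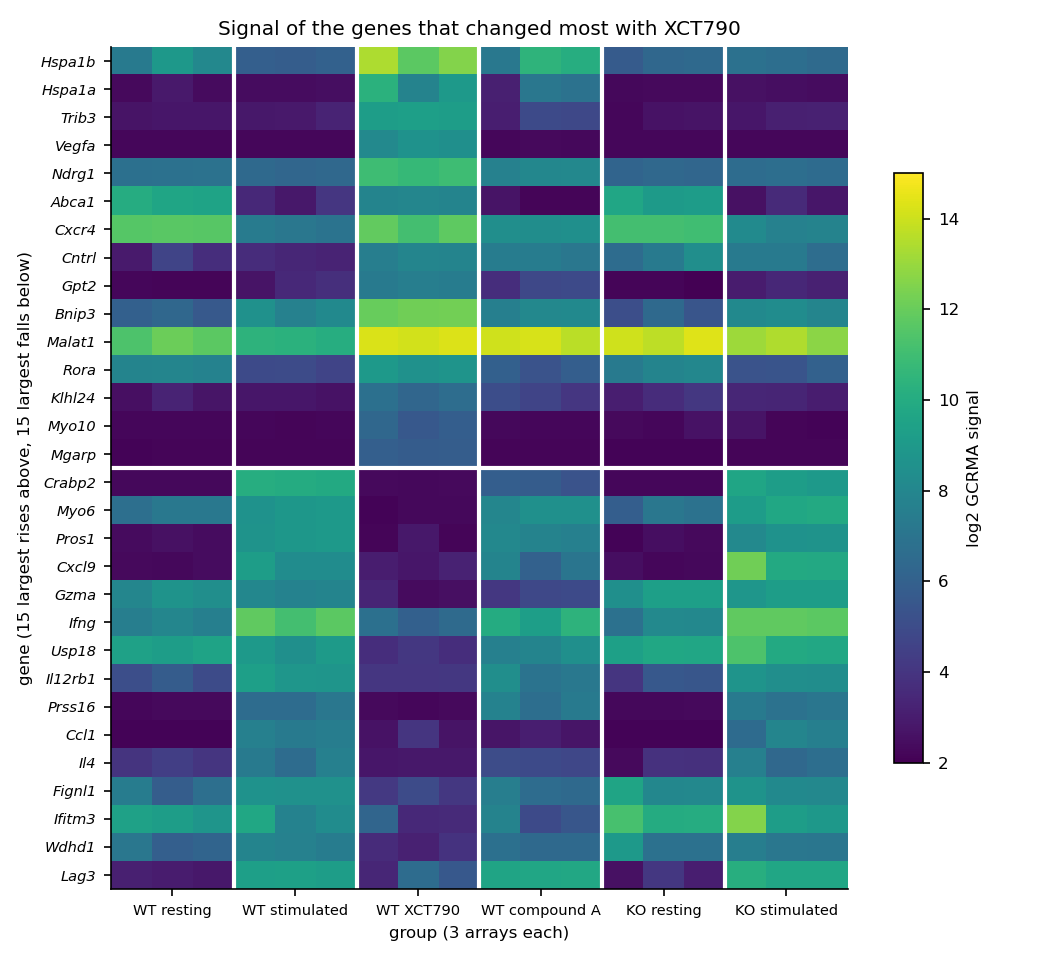
Log2 signal of the 15 largest rises and 15 largest falls (rows) on each of the 18 arrays (columns, grouped by genotype and treatment), on a colour scale from 2 to 15. The XCT790 columns stand apart from the stimulated wild-type columns in every row, as the choice of these genes required. Abca1 and Cxcr4 are also high in the resting columns.

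Against stimulated knockout cells, which lie on the same side of the dap split as XCT790, most of the genes named here moved alike, and a few did not. Cntrl, which encodes the centrosomal protein centriolin, was 4.34 above stimulated wild-type cells but 0.71 above stimulated knockout cells, where the call ended (adjusted p = 0.159). Malat1, a nuclear noncoding RNA, was 3.96 above stimulated wild-type cells and 1.12 above stimulated knockout cells. The knockout arrays differ in genotype as well as in the dap probe set, and these cannot be told apart. With the knockout as reference, rises that were over 1.5 times smaller (in linear fold) were those of Hspa1b (5.88), Rora (3.18), Cxcr4 (3.68), Ccl5 (1.40), Cpt1a (0.82), Klf6 (0.95) and Mthfd2 (1.47), and the fall of Crabp2 (-7.02) was smaller as well. Falls that were over 1.5 times larger were mainly of cytokine and interferon-related genes: Cxcl9 (-7.64), Gzma (-6.35), Usp18 (-6.48), Ifitm3 (-5.82), Oas1a (-4.94), Zbp1 (-4.51), Iigp1 (-3.08), Nkg7 (-4.64), Lif (-3.96), Ccl17 (-4.76), Socs3 (-2.83) and Myo6 (-7.38). The rises of Slc1a4 (4.12) and Mxd4 (2.02) were larger too. Ifit3 and Ccl6 also had larger negative differences (-3.42 and -2.39).

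Esrra itself was low and hardly moved. It read 5.28, 5.47 and 5.36 on the stimulated arrays and 5.06, 5.08 and 5.14 on the XCT790 arrays, with no overlap, a difference of -0.27 ± 0.11 (adjusted p = 0.0459). The call ended without any 1 of the 3 XCT790 arrays (adjusted p = 0.102, 0.0884 and 0.0661), without stimulated array 2 (0.149) or 3 (0.0815), with dim probe sets kept (0.0759) and with a trended prior (0.106). Compound A arrays read 5.10, 5.10 and 5.12, and stimulated knockout arrays 4.33, 4.30 and 4.71, so against the knockout the sign turned (0.65). Of 6 tested genes of the ERR family and its coregulators, 3 rose and 3 fell, with 1 fall left without XCT790 array 2, without stimulated array 2 or 3, or with no filter. Among partners of ERRα, Ppargc1b, which encodes PGC-1β, fell by 1.17 ± 0.28, from 7.20, 7.47 and 7.14 to 5.21, 6.79 and 6.29 (adjusted p = 0.00176). Pprc1, a related coactivator, rose by 0.53 ± 0.13, Nrip1, a corepressor, by 0.43 ± 0.10, and Ncoa1, a general coactivator, by 0.93 ± 0.15 (adjusted p = 0.00208, 0.00214 and 8.88e-05).

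Genes of mitochondrial energy metabolism fell together by modest amounts. Of 22 tested ERR target genes, 17 fell and 3 rose, with a median of -0.49. The letters TCAAGGTCA, the ERR response element, occur on either strand in 0 of 20 members with a promoter window (300 bases that span the transcription start), in 0.353% of tested genes and in 0.423% of all windows. The rises were Vegfa, Gabpa (0.70 ± 0.08), which encodes a subunit of the mitochondrial regulator NRF-2, and Nrf1 (1.11 ± 0.39), another regulator of mitochondrial genes, whose call ended without XCT790 array 1, or without stimulated array 1 or 3 (adjusted p up to 0.0846) and with dim probe sets kept (0.0512). Of 33 respiratory complex I genes, 30 fell and 1, Ndufa6 (0.39 ± 0.10), rose (median -0.81), and of 37 genes of complexes II to V, 36 fell and 1, Cox7c (0.48 ± 0.17), rose (median -0.61). The call on Cox7c ended without XCT790 array 1, or without stimulated array 1 (adjusted p up to 0.0928). Ndufa5, a complex I subunit, read 11.14, 11.19 and 11.11 on the stimulated and 9.66, 9.86 and 9.64 on the XCT790 arrays and fell by 1.43 ± 0.08 (adjusted p = 4.6e-09). Uqcr11, a complex III subunit, read 11.49, 11.37 and 11.37 and 9.82, 9.98 and 9.86 and fell by 1.52 ± 0.10 (adjusted p = 2.28e-08). The 2 groups were well apart for both, and XCT790 arrays read below the resting level (10.12 ± 0.06 and 10.71 ± 0.06). Other falls were Ndufb2 (-1.16), Ndufs5 (-1.14), Ndufb10 (-1.03), Ndufa4 (-1.13), Cox5b (-0.92), Atp5o (-0.91) and Atp5l (-0.78). Cycs, which encodes cytochrome c, differed by -0.28 ± 0.10 (adjusted p = 0.0233), but this call ended without XCT790 array 2 or 3, without stimulated array 2 or 3 (adjusted p up to 0.0869) and against stimulated knockout cells (-0.15, adjusted p = 0.195). The ribosome of the mitochondrion, which translates subunits of the respiratory chain, showed the same direction: 65 of 69 genes fell and 0 rose (median -0.92), among them Mrpl4 (-1.63 ± 0.08), Mrpl11 (-1.71 ± 0.11) and Mrpl42 (-1.51 ± 0.09).

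The tricarboxylic acid cycle and fatty acid oxidation were lower as well. Of 17 cycle genes, 16 fell and 0 rose (median -0.53). Suclg1, a subunit of succinyl-CoA synthetase, read 11.46, 11.57 and 11.48 and 9.73, 10.35 and 10.11 (stimulated, then XCT790) and fell by 1.44 ± 0.11 (adjusted p = 9.1e-08). Idh2, the mitochondrial NADP-linked isocitrate dehydrogenase, fell by 1.51 ± 0.18, Fh1, fumarase, by 1.25 ± 0.12, Sdhd, a succinate dehydrogenase subunit, by 1.20 ± 0.10 and Idh3a, a subunit of the NAD-linked enzyme, by 0.45 ± 0.07 (adjusted p from 1.07e-07 to 3.41e-05). Of 18 genes of fatty acid oxidation, 11 fell and 1 rose (median -0.58). Eci1, which moves double bonds of unsaturated fatty acids, read 9.44, 9.40 and 9.34 and then 6.62, 7.38 and 7.14 and fell by 2.34 ± 0.15, or 5.08-fold (adjusted p = 1.21e-08). Hadh and Acaa2, enzymes of the last steps of the spiral, fell 4.39-fold and 3.31-fold, and Acadm, the medium-chain dehydrogenase, fell by 0.58 ± 0.13 (adjusted p = 2.29e-07, 4.54e-08 and 0.000899). The 1 rise was Cpt1a, the gate for long-chain fatty acids into mitochondria, which read 5.33, 4.15 and 4.68 and 6.57, 6.68 and 6.83, a rise of 1.97 ± 0.29 (adjusted p = 2.84e-05). It rested on 1 of 2 probe sets, and compound A arrays read higher still (7.73, 6.89 and 6.82).

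Most genes of glucose uptake and glycolysis rose. Of 19 tested genes, 11 rose and 2 fell, Ldhb and Pfkm (-1.17 ± 0.35), with a median of 0.79. Slc2a3, the high-affinity glucose transporter GLUT3, read 9.18, 8.81 and 8.79 on the stimulated and 12.46, 12.23 and 12.40 on the XCT790 arrays, a rise of 3.43 ± 0.11, or 10.8-fold (adjusted p = 1.6e-11), to above the resting level of 11.28 ± 0.04. Slc2a1, the transporter GLUT1, read 10.22, 9.94 and 10.15 and 12.02, 11.80 and 12.08, a rise of 1.86 ± 0.16 (adjusted p = 1.95e-07). Slc16a3, the lactate exporter MCT4, read 3.28, 2.31 and 2.31 and 6.12, 5.96 and 6.06, at least 4.13-fold up (adjusted p = 4.6e-09). For these 3 transporters every XCT790 array was above all 15 other arrays. Eno2, an enolase, rose at least 2.35-fold and Pfkp, a phosphofructokinase, 2.78-fold, whereas Ldhb, the lactate dehydrogenase chain of oxidative tissues, fell 3.64-fold (adjusted p = 2.1e-08, 9.26e-07 and 2.05e-06). Hk2, an inducible hexokinase, read 9.86, 9.75 and 9.88 and 10.31, 10.71 and 10.84, a difference of 0.79 ± 0.32 (adjusted p = 0.0424). This call ended when any 1 of 5 arrays was left out (all but XCT790 array 1, adjusted p up to 0.124) and with dim probe sets kept (0.096). Txnip, which restrains glucose uptake, read 9.22, 9.57 and 9.51 and 9.55, 9.67 and 9.67 (difference 0.20 ± 0.11, adjusted p = 0.14) and did not pass. The mean of its probe sets did (0.61, adjusted p = 0.00431), as did Txnip with array weights (0.0157). Here and below, array weights rested mainly on XCT790 array 3 (weight 18.3, against 0.203 and 0.441 for arrays 1 and 2).

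All 15 tested targets of hypoxia-inducible factor rose, with a median of 2.12, and Hif1a, a gene of the factor itself, is counted among them. Hypoxia-inducible factor is a transcription factor that is stabilised when oxygen or prolyl hydroxylase activity is low. Beside Vegfa, Ndrg1, a stress-responsive gene, read 6.43, 6.31 and 6.37 on the stimulated and 10.97, 10.73 and 10.96 on the XCT790 arrays, a rise of 4.52 ± 0.10 (adjusted p = 1.06e-13). Bnip3, a mitophagy receptor of the outer mitochondrial membrane, read 8.57, 7.73 and 8.20 and 11.97, 12.18 and 12.24, a rise of 3.96 ± 0.30 (adjusted p = 5.9e-08). No array of the groups overlapped, as required of the largest rises, to which both genes belong. P4ha1, a collagen prolyl hydroxylase, rose 5.99-fold, Mxi1, an antagonist of MYC, 5.63-fold, Kdm3a, a histone demethylase, 5.18-fold and Ero1a, an oxidase of the endoplasmic reticulum, 2.48-fold (adjusted p from 3.2e-10 to 1.01e-08). The letters ACGTG, the core of the hypoxia response element, occur on either strand in the promoter window of 10 of 13 list members with a window, and in 31.2% of 5666 tested genes with one and 19.6% of 32851 windows. Windows are 300 bases that span the transcription start, in RefSeq GRCm38.p6. This motif was added after the data were seen. Vegfa and Bnip3 are among the matches. The window of Bnip3 is shown with the core in capitals (chr7:138909457-138909756, minus strand), where 2 overlapping matches on opposite strands form CACGTG, so the site is also an E-box.
Bnip3: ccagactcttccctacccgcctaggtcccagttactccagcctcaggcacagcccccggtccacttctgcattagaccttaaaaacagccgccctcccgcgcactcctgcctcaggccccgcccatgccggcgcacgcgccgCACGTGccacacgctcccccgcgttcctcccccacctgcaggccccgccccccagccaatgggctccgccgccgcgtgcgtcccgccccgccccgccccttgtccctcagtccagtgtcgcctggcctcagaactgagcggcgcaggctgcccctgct

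Nearly all genes of the integrated stress response rose. ATF4 is the transcription factor made when eIF2α is phosphorylated in response to amino acid shortage, unfolded proteins or mitochondrial stress. Of 29 tested target genes, 26 rose and 1 fell, with a median of 2.07. Atf4 itself rose by 1.14 ± 0.09, from 11.98, 12.00 and 11.99 to 13.29, 12.99 and 13.12 (adjusted p = 1.16e-07). Ddit3, which encodes the partner factor CHOP, rose 9.16-fold, from 7.50, 7.61 and 7.51 to 11.42, 10.26 and 10.52 (adjusted p = 6.28e-08). Chac1, which degrades glutathione, read 2.82, 3.19 and 2.89 and then 6.24, 6.84 and 6.84, at least 6.23-fold up (adjusted p = 3.91e-09). Chac1 was thus detected only on the XCT790 arrays of this pair. Sesn2, a leucine sensor that restrains mTORC1, rose 4.73-fold, and Cebpg, which pairs with ATF4, 4.04-fold (adjusted p = 1.22e-09 and 4.74e-09). Asns, asparagine synthetase, rose by 1.75 ± 0.53, from 6.71, 6.36 and 6.77 to 8.78, 8.40 and 7.92 (adjusted p = 0.00924). Wars, the tryptophanyl-tRNA synthetase, also known as an interferon-inducible gene, fell by 1.46 ± 0.12. The letters TGATGNAA, a part of the amino acid response element that ATF4 binds, were found on either strand in 7 of 22 members with a promoter window, among them Trib3, Chac1 and Asns, against 2.63% of tested genes and 3.97% of all windows. The windows of the 2 members of the list with a match that rose most are shown, the match in capitals (Trib3 at chr2:152344011-152344310, minus strand; Chac1 at chr2:119350992-119351291, plus strand). Counted from the transcription start, the match begins at base 15 in Trib3 and at base -193 in Chac1.
Trib3: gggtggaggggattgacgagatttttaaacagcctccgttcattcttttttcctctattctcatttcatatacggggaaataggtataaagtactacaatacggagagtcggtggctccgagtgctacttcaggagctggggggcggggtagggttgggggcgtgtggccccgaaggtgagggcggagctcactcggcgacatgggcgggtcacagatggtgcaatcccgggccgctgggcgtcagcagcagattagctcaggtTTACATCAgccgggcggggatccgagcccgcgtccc
Chac1: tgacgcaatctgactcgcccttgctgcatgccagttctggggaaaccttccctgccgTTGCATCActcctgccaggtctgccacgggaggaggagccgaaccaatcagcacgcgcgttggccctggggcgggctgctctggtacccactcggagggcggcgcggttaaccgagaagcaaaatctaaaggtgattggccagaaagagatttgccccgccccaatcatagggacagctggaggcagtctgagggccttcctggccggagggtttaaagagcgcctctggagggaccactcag

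Amino acid supply followed the same pattern, but the enzymes that charge tRNAs were divided. Of 11 amino acid transporters and branched-chain aminotransferases, 7 rose and 3 fell: Slc7a6 (-0.65 ± 0.10), Bcat1 (-0.92 ± 0.19) and Bcat2 (-0.78 ± 0.13). Slc7a3, a carrier of basic amino acids, read 2.28, 2.29 and 2.29 on the stimulated and 5.74, 5.84 and 4.89 on the XCT790 arrays (at least 2.82-fold up, adjusted p = 4.85e-09). Slc1a4, a carrier of neutral amino acids, rose at least 9.55-fold, Slc3a2, the heavy chain of several exchangers, 4.53-fold, Slc38a2 3.12-fold and Slc7a5, the light chain of the leucine exchanger, 1.74-fold (adjusted p from 7.74e-09 to 3.3e-05). Of 24 aminoacyl-tRNA synthetases, 10 rose and 14 fell. Sars rose by 1.20 ± 0.14, whereas Rars, Kars and Farsa fell by 1.02 ± 0.08, 0.99 ± 0.10 and 0.90 ± 0.09 (adjusted p = 3.38e-06, 1.28e-07, 8.06e-07 and 9.8e-07). Of 8 genes of serine synthesis and one-carbon metabolism, 4 rose and 3 fell, with 2 rises without XCT790 array 2 or 3, without stimulated array 1, with no filter or in a fit of the 2 groups alone. Mthfd2, the mitochondrial folate enzyme, rose 4.21-fold, from 9.82, 10.18 and 10.24 to 12.14, 12.09 and 12.23, and Phgdh, the first enzyme of serine synthesis, 1.49-fold, while the cytosolic Shmt1 and Mthfd1 fell 2.52-fold and 2.55-fold (adjusted p = 3.34e-07, 0.00323, 8.96e-05 and 0.000179). Sfxn1, a mitochondrial serine transporter, fell by 1.13 ± 0.11 (adjusted p = 7.64e-07).

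Chaperones did not rise as a class. Of 19 cytosolic heat shock genes, 6 rose and 7 fell (median 0.03). Hspa1a, the second inducible Hsp70 gene, read 2.41, 2.41 and 2.47 on the stimulated and 10.28, 7.83 and 8.97 on the XCT790 arrays, a rise of 6.60 ± 0.79, or at least 32.6-fold (adjusted p = 4.29e-06). XCT790 array 1 was highest and array 2 lowest, and the difference was 5.97 without array 1 and 7.20 without array 2. Hspa4l, an Hsp110 chaperone, rose 3.20-fold and Dnajb4, an Hsp40, 1.84-fold, while Hspbp1, a regulator of Hsp70, and Ahsa1, an activator of Hsp90, fell 2.11-fold and 1.51-fold (adjusted p = 0.000183, 1.32e-05, 1.61e-06 and 9.88e-05). The letters GAANNTTC, the core of the heat shock element, occur on either strand in 10 of 17 members with a window, and in 7.11% of tested genes and 7.86% of all windows. The windows of both Hsp70 genes (chr17:34972107-34972406 and chr17:34959189-34959488, minus strand) both match at base -104 from the start and are identical at 296 of 300 positions. The genes are near copies, and probe sets of either may read both.
Hspa1a: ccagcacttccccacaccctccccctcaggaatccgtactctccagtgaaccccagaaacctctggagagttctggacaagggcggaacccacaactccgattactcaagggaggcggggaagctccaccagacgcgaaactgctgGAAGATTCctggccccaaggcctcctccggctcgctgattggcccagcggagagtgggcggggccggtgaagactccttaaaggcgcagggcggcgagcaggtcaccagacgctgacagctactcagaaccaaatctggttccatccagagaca
Hspa1b: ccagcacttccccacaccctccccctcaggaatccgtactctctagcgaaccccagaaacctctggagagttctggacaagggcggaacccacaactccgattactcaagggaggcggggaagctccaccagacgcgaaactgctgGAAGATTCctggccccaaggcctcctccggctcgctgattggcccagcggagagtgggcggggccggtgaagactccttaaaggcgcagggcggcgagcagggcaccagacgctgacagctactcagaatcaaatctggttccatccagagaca

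Other stress pathways were mixed. Of 26 genes of the unfolded protein response in the endoplasmic reticulum, 5 rose and 9 fell (median 0.06), with 9 rises when arrays were weighted. The rises were in genes that ATF4 also drives, such as Herpud1 (4.43-fold), and in the kinase Eif2ak3 (3.32-fold), while the folding factors Sdf2l1 and Manf fell 3.25-fold and 1.64-fold (adjusted p = 1.78e-08, 5.82e-07, 1.04e-06 and 1.07e-05). Of 20 targets of NRF2, the regulator of antioxidant genes, with its own gene Nfe2l2 counted among them, 6 rose and 6 fell. The letters TGACNNNGC, the core of the antioxidant response element, occur in 6 of 15 members with a window and in 17.0% of tested genes. Nfe2l2, which encodes NRF2, rose by 1.37 ± 0.16, and the pentose phosphate enzymes Taldo1, Tkt and Pgd fell by 0.80 ± 0.08, 1.13 ± 0.16 and 1.04 ± 0.15 (adjusted p = 2.48e-06, 9.6e-07, 1.77e-05 and 2.68e-05). Mt1, a metallothionein, read 3.22, 2.61 and 2.98 and then 6.08, 5.34 and 4.61 (adjusted p = 0.00323), and 7.80 ± 0.80 in resting cells. Of 8 tested genes of metallothioneins and zinc transport, 4 rose and 1 fell. In the list of aryl hydrocarbon receptor targets, 2 of 9 genes on the array were tested. These were the receptor gene Ahr and Tiparp, and both rose. The metal response element core, TGCGCNC, occurs in 4 of 6 windows of the first list and 31.3% of tested genes, and the xenobiotic response element core, TTGCGTG, in 0 of 1 window of the second and 2.22% of tested genes. Of 14 AMPK and energy-sensing genes, 9 rose and 1, Prkag2 (-0.41 ± 0.13), fell (median 0.54). The call on Prkag2 ended without XCT790 array 1 (adjusted p = 0.0834) and against stimulated knockout cells (0.435). Ddit4, an inhibitor of mTORC1, rose 4.66-fold, Flcn, a folliculin that acts on mTORC1 at lysosomes, 4.39-fold, and Ulk1, the autophagy kinase, 2.09-fold (adjusted p = 5.85e-08, 5.24e-08 and 2.95e-06). Of 23 genes of mitochondrial stress and dynamics, 6 rose and 10 fell. The protease Lonp1 rose by 1.38 ± 0.16, and the proteases Clpp and Oma1 fell by 0.92 ± 0.06 and 1.21 ± 0.11 (adjusted p = 2.58e-06, 2.29e-08 and 2.14e-07).

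Most genes of cholesterol synthesis and uptake fell. Of 20 genes of cholesterol synthesis and uptake, 15 fell and 2 rose, with a median of -1.33. The rises were Insig2 (1.75 ± 0.21) and Scap (0.23 ± 0.07), both genes of sterol sensing. The letters TCACNCCAC, the core of the sterol response element, occur in 1 of 16 members with a window, Hmgcs1, and in 1.31% of tested genes. The call on Scap ended against stimulated knockout cells (adjusted p = 0.0529). Pmvk, phosphomevalonate kinase, read 7.92, 8.02 and 7.97 on the stimulated and 4.92, 5.73 and 5.51 on the XCT790 arrays and fell by 2.58 ± 0.17, or 5.99-fold (adjusted p = 2.17e-08). Fdps, which makes farnesyl diphosphate, fell 3.88-fold, Nsdhl 3.22-fold, Fdft1, squalene synthase, 3.09-fold and Sqle, squalene epoxidase, 3.01-fold (adjusted p from 1.31e-08 to 1.29e-07). Hmgcs1, an early enzyme of the pathway, fell by 0.81 ± 0.13, from 11.35, 11.40 and 11.27 to 10.48, 10.63 and 10.47 (adjusted p = 8.39e-05). Among 13 targets of the oxysterol receptor LXR and fatty acid synthesis genes, 6 rose and 4 fell. The LXR targets Abcg1, a sterol exporter, and Mylip, which degrades lipoprotein receptors, rose 2.91-fold and 3.34-fold, beside Abca1 (adjusted p = 4.49e-06 and 1.53e-07). Srebf1 rose 1.88-fold, and Acly, ATP citrate lyase, fell 1.44-fold (adjusted p = 5.47e-07 and 2.68e-05). Npc1, the lysosomal cholesterol carrier, rose 2.24-fold (adjusted p = 3.03e-07), in a list of 26 lysosome and autophagy genes of which 9 rose and 10 fell.

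Effector cytokines and chemokines fell, and interleukin-2 did not pass. Of 17 cytokine genes, 12 fell and 2, Ltb (0.34 ± 0.13) and Il16 (0.52 ± 0.20), rose (median -1.60). The call on Ltb ended without any 1 XCT790 array, or without stimulated array 2 or 3 (adjusted p up to 0.0804), that on Il16 without any 1 XCT790 array, or without stimulated array 1 or 2 (adjusted p up to 0.116), and both with dim probe sets kept (0.0624 and 0.0727). Ifng, interferon gamma, read 11.81, 11.14 and 11.70 on the stimulated and 6.80, 5.97 and 6.51 on the XCT790 arrays and fell by 5.12 ± 0.34, or 34.8-fold (adjusted p = 1.76e-08), to below its resting level of 7.72 ± 0.21. Il4, the lead cytokine of Th2 cells, read 7.29, 6.58 and 7.66 and then 2.77, 2.81 and 2.81, at least 9.03-fold lower (adjusted p = 2.45e-07). Il13, another Th2 cytokine, fell at least 2.75-fold (adjusted p = 1.06e-05). Lif read 8.11, 7.80 and 8.20 and 6.13, 3.62 and 4.31, at least 9.35-fold lower (adjusted p = 1.01e-05), with a difference of -4.07 in place of -3.35 without XCT790 array 1. Il2, the growth factor of T cells, read 11.13, 11.35 and 11.27 on the stimulated and 10.60, 11.05 and 11.15 on the XCT790 arrays (difference -0.32 ± 0.28, 95% interval -0.91 to 0.27, adjusted p = 0.326), against 4.46 ± 0.44 in resting cells. All 3 XCT790 arrays thus held Il2 near the stimulated level. Of 10 chemokine genes, 8 fell and 1 rose (median -2.70), with 5 falls left without stimulated array 1. Ccl22 read 11.71, 11.48 and 11.74 and 6.17, 8.19 and 8.52, 16.2-fold lower (adjusted p = 1.32e-06), and its difference of -4.02 became -3.29 without XCT790 array 1. Ccl3 and Xcl1 fell 6.96-fold and 7.61-fold (adjusted p = 0.000228 and 0.000112). The rise was Ccl5, a chemokine of memory T cells, from 7.74, 6.56 and 6.95 to 11.11, 9.48 and 10.16 (adjusted p = 0.000124), with 12.32 ± 0.16 in resting cells.

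Tbx21, Eomes and most interferon-stimulated genes fell, while T helper factors as a list were mixed. Tbx21, which encodes T-bet, the Th1 master regulator, read 11.01, 11.02 and 11.09 on the stimulated and 7.03, 7.81 and 7.68 on the XCT790 arrays and fell by 3.54 ± 0.21, or 11.6-fold (adjusted p = 6.78e-09). Eomes, a related factor, fell 8.80-fold, and Il12rb1, a receptor chain for interleukin-12, 30.0-fold (adjusted p = 6.01e-06 and 1.26e-07). Gata3, the Th2 regulator, fell by 1.27 ± 0.16 (adjusted p = 5.87e-06). Bcl6, the regulator of follicular helper cells, rose 5.34-fold, and Bhlhe40 5.34-fold (adjusted p = 1.79e-05 and 4.18e-06). Of 19 T helper factors, 8 rose and 6 fell, but only 4 rose without XCT790 array 1 and 5 without stimulated array 3, with no filter or against stimulated knockout cells. Of 25 interferon-stimulated genes, 17 fell and 0 rose (median -1.27). Zbp1, a nucleic acid sensor, read 9.96, 9.69 and 9.62 and 6.13, 6.10 and 5.63 and fell by 3.81 ± 0.24 (adjusted p = 1.27e-08). Usp18, which removes the ubiquitin-like ISG15, read 9.03, 8.46 and 9.11 and 3.72, 4.13 and 3.72 (adjusted p = 1.87e-08). The groups were apart for both genes, for Usp18 by the choice of the largest falls. Both read high in resting cells (8.99 ± 0.12 and 9.41 ± 0.13). The GTPases Irgm1, Iigp1 and Igtp, which interferon gamma induces, fell 4.37-fold, 4.58-fold and 2.41-fold, and the immunoproteasome subunit Psmb8 2.52-fold (adjusted p from 1.32e-08 to 1.64e-06). The letters GAAANNGAA, the core of the interferon-stimulated response element, occur on either strand in 11 of 21 members with a window, and in 8.79% of tested genes and 8.56% of all windows. Oas1a, which makes the second messenger of the antiviral RNase L, is shown as a member under log2 4 on the 3 XCT790 arrays and at or above it on the other 15, with 2 overlapping matches in capitals that lie shortly before the start (chr5:120907476-120907775, minus strand).
Oas1a: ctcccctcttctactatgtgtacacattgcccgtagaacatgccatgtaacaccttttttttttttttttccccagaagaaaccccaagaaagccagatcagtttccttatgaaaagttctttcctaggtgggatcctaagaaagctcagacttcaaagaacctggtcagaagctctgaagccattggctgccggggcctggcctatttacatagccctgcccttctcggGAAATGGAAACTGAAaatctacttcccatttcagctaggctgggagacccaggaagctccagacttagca

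Surface receptors and signalling of activation were divided. Il2ra, the high-affinity chain of the interleukin-2 receptor (CD25), read 10.68, 10.87 and 10.89 on the stimulated and 9.70, 10.71 and 10.62 on the XCT790 arrays, against 7.03 ± 0.23 in resting cells. Its difference of -0.47 ± 0.23 did not pass (adjusted p = 0.0832, or 0.0492 with the replicate number as a block), but passed with array weights (0.0468) and against stimulated knockout cells (0.0378). Of 14 genes of the receptor and its STAT5 response, 8 fell and 3 rose. Il2rb, the second receptor chain, fell by 1.33 ± 0.17, the STAT5 target Cish by 1.02 ± 0.17 and the signalling inhibitors Socs1 and Socs3 by 2.52 ± 0.38 and 1.95 ± 0.31, whereas the kinase Pim1 rose by 1.08 ± 0.09 (adjusted p = 9.96e-06, 0.000106, 4.04e-05, 6.15e-05 and 1.08e-07). Irf4, a factor that scales with the strength of receptor signalling, read 12.99, 13.05 and 13.00 and 13.56, 13.54 and 13.64 (difference 0.57 ± 0.28, adjusted p = 0.0868), though 1 of its 2 probe sets rose and their mean passed (1.21, adjusted p = 0.000153). Irf4 also passed with array weights, which rest mainly on XCT790 array 3, and in a fit of the 2 groups alone (0.00493 and 0.000398). Tfrc, the transferrin receptor, differed by -0.08 ± 0.29 (adjusted p = 0.833), and 1 of its 2 probe sets rose. Lag3, an inhibitory receptor for MHC class II, read 9.35, 9.37 and 9.24 and 3.42, 6.60 and 5.59, at least 15.2-fold lower (adjusted p = 1.47e-05), with a difference of -3.22 without XCT790 array 1 and -4.81 without array 2. Pdcd1, which encodes PD-1, fell 3.78-fold and Ctla4 rose 2.62-fold (adjusted p = 0.00381 and 2.46e-06). Of 8 inhibitory receptors and ligands, 3 fell and 2 rose, shares near those of all genes, with 5 falls when arrays were weighted. There was 1 rise without XCT790 array 1, without stimulated array 2 or 3, with no filter or in a fit of the 2 groups alone. Of 20 activation and costimulation genes, 5 rose and 2 fell, with 10 rises and 4 falls when arrays were weighted, 4 falls against stimulated knockout cells and 1 with a floor of log2 6. Tnfsf8 (CD30 ligand) and Tnfsf11 (RANKL) rose 3.89-fold and 2.40-fold (adjusted p = 0.00127 and 0.00146), but the call on Tnfsf8 ended against stimulated knockout cells (0.59, adjusted p = 0.264).

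**Figure D3:**
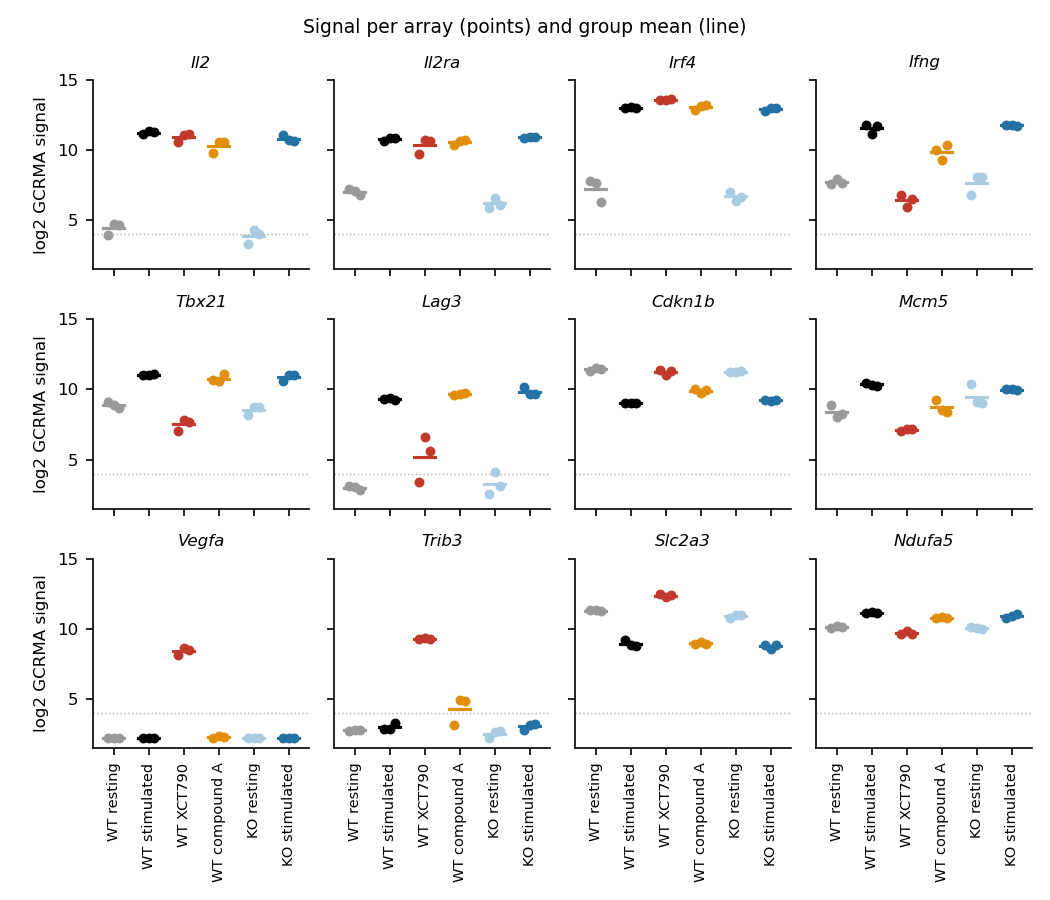
Log2 signal (vertical axis) of 12 genes on each array (points), in the 6 groups of 3 arrays (horizontal axis), with group means as bars and log2 4 as a dotted line. With XCT790, Il2, Il2ra and Irf4 stay near the stimulated wild-type level, Ifng, Tbx21, Lag3, Mcm5 and Ndufa5 are lower, and Cdkn1b, Vegfa, Trib3 and Slc2a3 are higher.

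Within receptor signalling, several subunits fell and some feedback inhibitors rose. Of 21 genes of the receptor complex and its proximal signalling, 10 fell and 6 rose. Cd3g and Cd247, receptor subunits, fell by 1.19 ± 0.12 and 1.02 ± 0.14, the adaptor Lcp2 by 0.94 ± 0.13, and Cbl, a ubiquitin ligase that ends signalling, rose by 1.08 ± 0.14 (adjusted p = 6.06e-07, 2.06e-05, 1.58e-05 and 7.45e-06). Of 16 genes of the NF-κB pathway, 11 rose and 3 fell (median 0.59). Tnfaip3, which encodes the inhibitor A20, read 4.44, 4.55 and 4.55 on the stimulated and 7.56, 6.93 and 6.79 on the XCT790 arrays, a rise of 2.58 ± 0.16, or 5.98-fold (adjusted p = 1.07e-08). Relb rose 2.05-fold, Birc3 2.42-fold and the inhibitor Nfkbia 1.49-fold, while the adhesion molecule Icam1 fell 2.75-fold (adjusted p from 2.54e-07 to 2.36e-05). Of 24 early response factors, 6 rose and 5 fell, with 10 falls when arrays were weighted and 3 against stimulated knockout cells. Dusp1, a phosphatase of MAP kinases, rose 3.73-fold, and Fosl1, an AP-1 subunit, fell at least 3.90-fold (adjusted p = 6.05e-07 and 0.000105).

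Most of the response to stimulation was still present with XCT790. Activation genes were taken from the knockout arrays, as those that changed at least 4-fold from rest. The knockout arrays do not enter the difference between XCT790 and stimulated wild-type cells, but they share in its estimate of the spread and in the filter. Of 270 that rose there, 169 (62.6%) were lower with XCT790 than in stimulated wild-type cells, 34 were higher and 67 did not pass. The median level of the 270 genes was 5.43 to 5.53 on resting wild-type arrays, 8.51 to 8.58 on stimulated arrays, 7.75 to 7.82 on XCT790 arrays and 7.77 to 7.87 on compound A arrays. XCT790 arrays thus lay between rest and stimulation, nearer to stimulation, and 90 of the genes (33.3%) had their XCT790 mean nearer to rest. Of 469 genes that were at least 4-fold lower in stimulated than in resting knockout cells, 112 rose, 79 fell and 278 did not pass with XCT790. Their median was 7.74 to 8.03 at rest, 4.46 to 4.56 after stimulation and 4.36 to 4.62 with XCT790, and 43 (9.17%) were nearer to rest. Resting knockout arrays also read high in markers of other cells: macrophage, erythroid and neutrophil list means were 8.35 to 10.27, 8.67 to 10.48 and 7.18 to 9.81. On stimulated knockout arrays they were 2.62 to 3.19, 2.69 to 3.57 and 2.75 to 5.75. How many of the 469 genes come from such cells was not tested. By the 270 genes, the XCT790 arrays therefore did not have the profile of resting cells that their stimulation label names.

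Regulators of quiescence were higher and the machinery of DNA replication lower. Of 25 genes of quiescence and naive T cells, 17 rose and 1, Slfn2 (-0.65 ± 0.11), fell (median 0.86). Compound A was also above stimulated cells for 16 of the 25 and below for 1 (median 0.47), against 990 of all 6873 genes above. XCT790 was above compound A for 11 of the 25 and below for 5. Klf7 rose 3.42-fold, Klf6 3.70-fold, Tob1 and Btg1, antiproliferative factors, 3.01-fold and 2.00-fold, and Tsc22d3, a glucocorticoid-induced gene, 3.54-fold (adjusted p from 3.94e-08 to 9.8e-07). Cdkn1b, which encodes the cyclin-dependent kinase inhibitor p27, read 9.05, 9.03 and 9.05 on the stimulated and 11.35, 11.05 and 11.29 on the XCT790 arrays, a rise of 2.18 ± 0.09, or 4.54-fold (adjusted p = 1.28e-10), close to its resting level of 11.42 ± 0.10. Of 17 cyclins, kinases and inhibitors of G1, 7 rose and 5 fell. Cdk4, the kinase of G1, fell 2.55-fold, and Ccnd2, its cyclin, 1.54-fold (adjusted p = 3.04e-07 and 6e-05). All 33 DNA replication genes fell (median -1.52). Mcm5, a subunit of the replicative helicase, read 10.48, 10.33 and 10.26 and 7.04, 7.19 and 7.15 and fell by 3.23 ± 0.31, or 9.37-fold (adjusted p = 5.07e-07), to below its resting level of 8.41 ± 0.44. Gins1, which activates that helicase, read 8.40, 8.33 and 8.25 on the stimulated arrays and 4.23 ± 0.21 (SD, n = 3) on the XCT790 arrays, with no overlap, 17.1-fold lower (adjusted p = 3.09e-07). The helicase subunits Mcm2, Mcm3 and Mcm4 fell 5.25-fold, 6.44-fold and 4.29-fold, and Wdhd1 and Fignl1, of replication and repair, are among the largest falls. Of 25 mitosis genes, 8 fell (32.0%, under the 36.9% of all genes) and 1, Cenpa (0.76 ± 0.24), rose. There were 13 falls in a fit of the 2 groups alone, and 10 of the 25 genes were under log2 4 on all 6 arrays. The call on Cenpa ended without XCT790 array 1 (adjusted p = 0.0622). Top2a, a topoisomerase, and Cdk1, the mitotic kinase, fell 7.18-fold and at least 3.05-fold (adjusted p = 0.000144 and 0.000435).

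Growth genes fell unevenly. Myc read 12.20, 11.99 and 11.99 on the stimulated and 11.09, 10.98 and 10.98 on the XCT790 arrays and fell by 1.05 ± 0.10 (adjusted p = 7.24e-07), above its resting level of 9.81 ± 0.07. Of 40 genes of the MYC network and ribosome biogenesis, 29 fell and 3 rose, the MYC antagonists Mxi1, Mxd4 (1.13 ± 0.27) and Mnt (0.96 ± 0.10) (median -0.47), among them the nucleolar factors Noc4l (3.40-fold down), Nhp2 (2.45-fold) and Nop16 (2.20-fold). The letters CACGTG, the E-box that MYC binds, occur in 9 of 34 members with a window and in 12.9% of tested genes. Of 41 cytosolic ribosomal proteins, 3 rose and 5 fell (median 0.04), but these counts depended on the setting. There were 10 rises and 10 falls with array weights, 9 and 9 with no filter, and 8 and 10 with a trended prior. A fit of the 2 groups alone and the knockout reference each gave 5 rises, leaving out stimulated array 2 gave 1 rise, and leaving out stimulated array 1 gave 3 falls. Rpl14 fell 2.09-fold and Rpl27a rose 2.49-fold (adjusted p = 2.71e-05 and 0.000232). Ribosomal proteins have many near copies in the genome, so their probe sets are uncertain. Of 36 proteasome genes, 32 fell and 0 rose (median -0.60). Pomp, the assembly factor, fell 3.06-fold, and the core subunits Psmb2, Psmb5 and Psmb7 2.19-fold, 1.91-fold and 2.21-fold (adjusted p from 5.84e-09 to 2.88e-07). Of 19 genes of nucleotide and polyamine synthesis, 11 fell and 2 rose, Sat1 and Odc1 (0.69 ± 0.18). Dhodh, the pyrimidine enzyme of the mitochondrial inner membrane, fell 2.09-fold, Srm, spermidine synthase, 2.25-fold, and Sat1, which starts polyamine breakdown, rose 2.43-fold (adjusted p = 1.17e-06, 9.59e-06 and 5.43e-07). Of 17 p53 targets, 9 rose and 3 fell (1 in a fit of the 2 groups alone), and of 14 BCL2 family and death genes, 6 rose and 4 fell. Bbc3, which encodes the death factor PUMA, rose 3.98-fold, Bcl2l11, which encodes BIM, 2.93-fold, Trp53inp1 3.08-fold and the inhibitor of caspases Xiap 1.85-fold, while the pore-forming Bak1 fell 2.22-fold (adjusted p from 1.28e-09 to 2.86e-07).

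**Figure D4:**
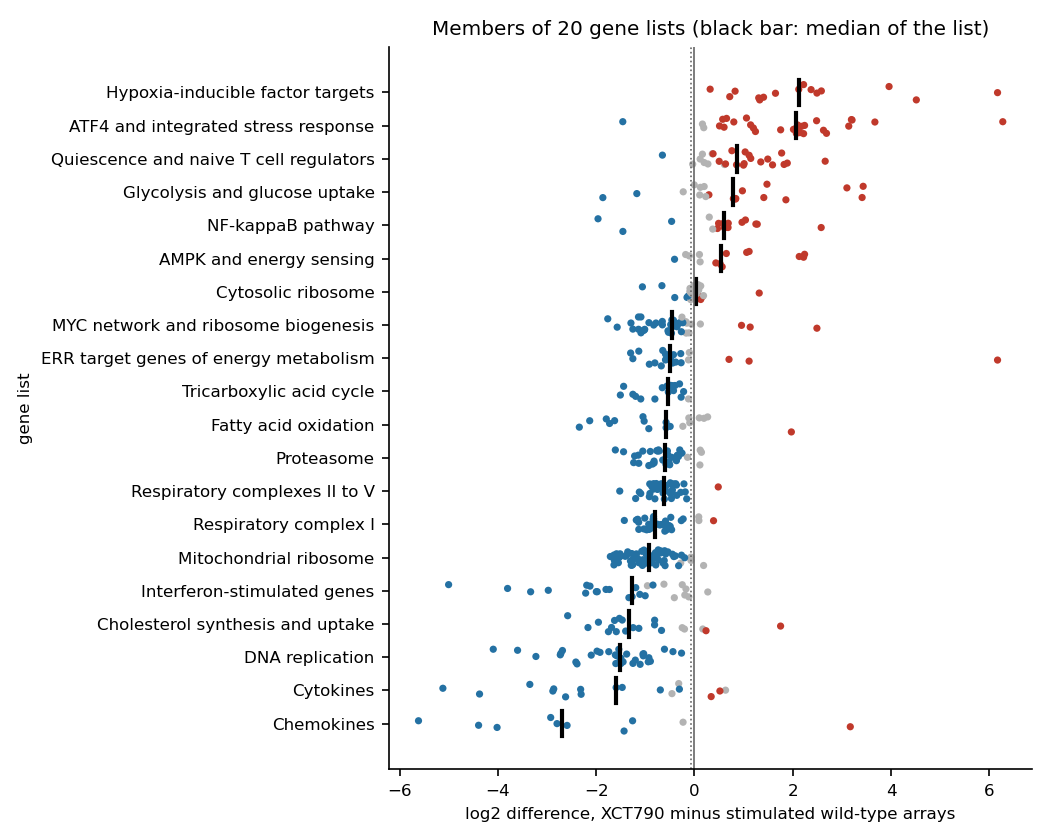
Log2 difference between XCT790 and stimulated wild-type arrays (horizontal axis) for the tested members of 20 gene lists (rows), red where a gene rose, blue where it fell and grey where it did not pass. Black bars are list medians and the dotted line is the median of all 6873 genes, -0.06; medians run from -2.70 for chemokines to 2.12 for targets of hypoxia-inducible factor.

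Markers of other cells were also read. Of 8 tested markers of CD8 T and natural killer cells, 0 rose and 3 fell (37.5%), a share near the 36.9% of all genes. The other 5 did not pass. There were 5 falls when arrays were weighted or against stimulated knockout cells. Gzma, a granule protease, read 8.00, 7.78 and 7.88 on the stimulated and 3.34, 2.40 and 2.56 on the XCT790 arrays, and Nkg7, a granule protein, 8.38, 8.20 and 8.14 and 4.09, 4.83 and 3.88, beside Eomes. The mean of this list was 6.44 to 6.61 on the stimulated and 4.88 to 5.04 on the XCT790 arrays. These cells can also make Ifng and Xcl1, and whether these falls bear on the cytokine results was not tested. Of 11 B cell markers, Cd74 and Ms4a1 fell (-1.15 ± 0.31 and -0.93 ± 0.27), and the list mean was 7.70 to 7.97 against 7.40 to 7.80 (the call on Ms4a1 ended against stimulated knockout cells, adjusted p = 0.681). None of 15 macrophage markers passed, 13 of them under log2 4 on all 6 arrays, and their mean was 2.33 to 2.52 and 2.30 to 2.46. On resting wild-type arrays that mean was 7.68 to 8.74, and the mean of the erythroid list was 4.64 to 7.08. The resting levels given in this report are thus those of preparations that also held RNA of other cells. None of 8 neutrophil, 10 erythroid or 2 platelet markers passed. Of 5 dendritic cell markers, Zbtb46 rose and Bst2 and Ccl17 fell. Bst2 is also interferon-stimulated, and Ccl17 lay near log2 4 on 2 of 3 stimulated arrays (6.91, 3.94 and 3.93), its call ending without the other (-1.60, adjusted p = 0.0858).

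Compound A, used at the same 20 µM for the same 12 h, gave a direct comparison on 1 side of the dap split. Of 6873 genes, XCT790 was higher in 1686 (24.5%) and lower in 1899 (27.6%), 764 of them at least 2-fold. The 2 responses share the stimulated arrays as their control, so they are given side by side. Stress and hypoxia genes were higher with XCT790: 27 of 29 integrated stress response genes and 14 of 15 targets of hypoxia-inducible factor, with 0 lower in the second list. Vegfa read 2.23, 2.34 and 2.28 with compound A, 6.12 ± 0.09 below XCT790 (adjusted p = 7.1e-16). Trib3 read 3.11, 4.94 and 4.83, 4.99 ± 0.34 below XCT790 (adjusted p = 6.55e-08). Hspa1b read 7.18, 10.47 and 10.08, above every stimulated array and 3.33 ± 0.67 below XCT790 (adjusted p = 0.000834). Only for Hspa1b did compound A arrays come near the XCT790 range among these 3 genes. Mitochondrial genes were lower with XCT790, 29 of 33 in complex I and 54 of 69 in the mitochondrial ribosome, with 0 higher in either. Compound A was itself lower than stimulated cells for 45 of the 69 (0 higher) and 8 of the 33 (1 higher), against 18.6% of all tested genes. Ifng read 10.00, 9.29 and 10.39 with compound A and Tbx21 10.65, 10.62 and 11.07, so that XCT790 minus compound A was -3.46 ± 0.34 and -3.27 ± 0.21 (adjusted p = 1.64e-06 and 3.33e-08). Of 25 interferon-stimulated genes, 19 were lower with XCT790 than with compound A and 0 higher. For some genes that fell with XCT790 the compounds did not differ past the test, which does not show that they act alike. Ccl1 read 2.71, 3.09 and 2.73 with compound A, and XCT790 minus compound A was 0.27 (95% interval -0.45 to 1.00, adjusted p = 0.537). Xcl1 differed by -1.07 (95% interval -2.13 to -0.01, adjusted p = 0.0865) and Pdcd1 by -0.57 (95% interval -1.66 to 0.51, adjusted p = 0.369). Esrra differed by -0.01 (95% interval -0.26 to 0.23, adjusted p = 0.955). Against stimulated cells, 25 of 33 DNA replication genes and 28 of 40 genes of the MYC network and ribosome biogenesis were lower with compound A (18.6% of all tested genes were), and XCT790 was lower than compound A for 22 of the 33 and 13 of the 40.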

How the data were processed

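The authors deposited GCRMA signals of Affymetrix Mouse Genome 430A 2.0 arrays on the log2 scale, 1 value for each probe set and array, per the submitters' processing notes; the version of GCRMA is not given in the sources used here. The label was biotin, per the labels. Control probe sets (64 of 22690), those that name no gene (1555) and those that name more than 1 (691) were not tested. Of the remaining 20380, 10691 reached log2 4 on at least 3 of 18 arrays. A linear model with a mean for each of the 6 groups (12 residual degrees of freedom) was fitted to these by limma (version 3.58.1, R version 4.3.3), with two-sided tests and Benjamini-Hochberg adjustment over all tested probe sets. Lists are described by counts and medians, with no test of their own. The fit was tested on simulated data. Summaries and figures used Python 3.11.15, pandas 2.3.3 and matplotlib 3.10.9.

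The comparison, the 51 gene lists, the motifs and the rule for named genes were chosen with earlier results of these data known. The rule names Esrra; 15 genes at each end of the ranking by difference, taken among those past the test whose groups do not overlap and whose higher group is at or above log2 4 on each array; from every list described, up to 6 members, lowest adjusted p first; detected markers of other cells; and 18 further genes of activation and metabolism; other genes are said to have been chosen after their values were seen. One item of that rule is not reported here.

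Deviations of equally numbered XCT790 and stimulated arrays from their group means correlated at 0.231, 0.110 and 0.166, all over 0.1. The labels name no shared animal or day, and XCT790 array 2 correlated as much with stimulated array 3 (0.115). The main fit used no pairs, so its SEs and p-values are unpaired. The replicate number entered as a block only in an alternative fit. Alternatives tried were testing without the filter, a floor of log2 6, a common median, other ways to treat several probe sets of a gene, the replicate number as a block, a fit of the 2 groups alone, another prior, array weights, a 2-fold limit, stimulated knockout cells as the reference, and leaving out each array in turn.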

Additional observations from a re-analysis of the deposited data

Results flagged for a closer look

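Control probe sets enter none of the comparisons of genes. Those at least 2-fold higher on the XCT790 than on the stimulated arrays, with no overlap, were 5, a limit set after the data were seen. The 5′ probe set of spiked bacterial dap RNA was 3.14 higher, and it was high on every array other than those of untreated wild-type cells. The 3′ probe set of 18S ribosomal RNA was 2.34 higher, and compound A arrays read near the stimulated level. The 5′ and middle probe sets of the same RNA were 1.35 and 1.08 higher. The probe set of the B1 repeat, a short element found in many transcripts, was 1.27 higher, at 11.89 ± 0.44 (SD, n = 3) against 10.63 ± 0.10, with 11.24 ± 0.06 with compound A. Groups of 3 arrays were not tested for outlying samples. What these differences contribute to the results was not tested.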

How the results depend on the processing

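The count of probe sets that differ between XCT790 and stimulated cells was 7124, and between XCT790 and compound A 5427. Asking for at least 2-fold as well left 2478 and 1192. With 1 probe set per gene (4534 and 3617) or the average of a gene's probe sets (4544 and 3609), fewer features were tested. Leaving out each array in turn gave 6585 to 6950 and 4693 to 5374. The other alternatives stayed within 1.5 times of 7124 and 5427, from 6604 (floor of log2 6) to 8785 (array weights) and from 5077 (2 groups alone) to 7792 (array weights). With stimulated knockout cells as the reference, 6906 probe sets passed, 86.5% of the calls kept their direction and 9 turned, among them Esrra (0.65). In no other alternative run on all probe sets did any of these calls turn.

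With the replicate number as a block, 7254 probe sets passed against stimulated cells, and among the genes named here it changed the call of Il2ra alone. Against compound A the equally numbered arrays did not all correlate (0.111, 0.0067 and 0.183), and the block gave 5601.

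With array weights, XCT790 array 3 had an estimated weight of 18.3 and the other 17 arrays 0.104 to 3.40; limma's estimate of these weights stopped before it converged. Values under log2 4 lie near background, so the folds of genes in that range are lower bounds. With every array holding the same values, a change of most transcripts in 1 direction could not be seen.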

Other observations

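Some genes were on 1 side of log2 4 on the XCT790 arrays and on the other side on all 15 other arrays, resting, knockout and compound A arrays included. They were found after the data were seen. At or above log2 4 on the 3 XCT790 arrays alone were 18 genes. Of these, 7 are named above (Vegfa, Chac1, Slc7a3, Slc16a3, Eno2, Myo10 and Mgarp). The others include Cth, the last enzyme of cysteine synthesis from methionine, which read 2.08, 2.08 and 2.08 on the stimulated and 4.96, 6.14 and 4.57 on the XCT790 arrays, a rise of 3.14 ± 0.25 (adjusted p = 1.08e-07). Angptl6, a secreted angiopoietin-like factor, rose by 3.01 ± 0.22, and Id1, an inhibitor of helix-loop-helix factors, by 2.02 ± 0.36 (adjusted p = 5.25e-08 and 0.000163). Hspb1, which encodes the small chaperone Hsp27, read 8.71, 4.08 and 5.17 on the XCT790 arrays, and its rise of 3.50 ± 0.76 (adjusted p = 0.000903) was 2.14 without array 1 and 4.46 without array 2.

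Another 18 genes were under log2 4 on the XCT790 arrays alone. Ada, adenosine deaminase, read 6.44, 6.68 and 6.98 on the stimulated and 2.60, 2.87 and 2.83 on the XCT790 arrays and fell by 3.93 ± 0.19 (adjusted p = 9.16e-10). Dna2, a nuclease of DNA replication and repair, fell by 3.85 ± 0.48, and Ifit3, an interferon-stimulated gene, by 2.22 ± 0.38 (adjusted p = 6.29e-06 and 0.000119). Gzma, Myo6, Wdhd1, Oas1a and the mitotic cyclin Ccna2 belong to the same group. Of the 18, Ccl6 did not pass (difference -1.07 ± 0.47, adjusted p = 0.0554), though it did with array weights (0.00767), in a fit of the 2 groups alone (0.0247), with a trended prior (0.0481) and against stimulated knockout cells (-2.39, adjusted p = 0.000418).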
